A study of Rattus norvegicus with 6 samples.

Results

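The auxiliary subunits of voltage-gated calcium channels were followed in the DNA methylation of rat dorsal root ganglia (DRG), the clusters of sensory neuron cell bodies beside the spinal cord. As chosen here, the family comprised alpha-2-delta genes (Cacna2d1, Cacna2d2 and Cacna2d3) and beta subunit genes (Cacnb1, Cacnb2, Cacnb3 and Cacnb4), and not every auxiliary subunit gene. Its members were the sites of the deposited annotated table whose named transcript belongs to one of these 7 genes, 32 of 32674 nuclear sites, together with 99 other CpG positions within 2000 bp of them that had 10 reads or more in all 6 libraries. In all the family held 131 sites. Sites near the listed starts, described further below, were taken by a separate rule and lie partly outside these 131.

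The tissue came from adult male Sprague-Dawley rats, 8 to 9 weeks old and about 220 g. In spinal nerve ligation (SNL, n = 3 libraries), an operation that produces neuropathic pain, silk was tied around the L5 and L6 spinal nerves of the left side, and in Sham (n = 3 libraries) the nerve was left without a ligature, per the labels on the other side of the body. All ganglia were taken 3 weeks after surgery, and the comparison asks where methylation in the ganglion differed after nerve injury. The labels do not say which ganglia were pooled, whether the libraries came from separate animals, or whether an SNL and a Sham library share an animal, so p-values rest on library-to-library spread, part of which may be technical.

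Alpha-2-delta proteins sit on the outer face of the channel complex and raise the number of channels at the cell surface and at synapses. The protein made by Cacna2d1 binds gabapentin and pregabalin, drugs used against neuropathic pain, and its amount is known to rise in rat DRG after nerve injury. Beta subunits lie inside the cell, bind the pore-forming subunit and promote its transport to the membrane. Methylation of CpG sites in a promoter island commonly goes with a silent promoter, while CpG sites within and between genes are mostly methylated.

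Reduced representation bisulfite sequencing (RRBS) reads fragments cut at CCGG by the enzyme MspI, and each value is the percent of reads in which a CpG cytosine stayed a C, which counts as methylated. Coverage summed over the listed nuclear CpG positions was 29342048 to 34226084 in the SNL libraries and 27131679 to 32068534 in the Sham libraries. A read that spans several positions counts at each, so these are not numbers of reads. The annotated sites had at least 100 reads in every library, with a median of 214, and the wider set at 10 reads or more had a median of 28. Mean methylation over all annotated sites was 66.7 to 68.2% in SNL libraries and 67.8 to 68.6% in Sham libraries, and over the 32 family sites 66.8 to 69.3% in SNL libraries and 68.5 to 69.2% in Sham libraries. Whole ganglia hold neurons, glia, immune cells and vessels, and a different mix of cells cannot be told apart from a change within cells.

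The stretches before the starts of 3 members are shown to give the CpG content of these starts, near which sites at 10 reads or more are described below. For Cacna2d3 some of those sites lie inside the stretch by the spacing match given below. For Cacna2d1 and Cacnb3 they lie outside it, the annotated Cacnb3 promoter sites farther upstream. The stretches are the 250 bases before the most upstream RefSeq start of each gene in the assembly GRCr8, printed 5′ to 3′ on the strand of the gene. RefSeq windows were found for 5 of the 7 genes, 8 windows in all. Cacna2d1 (chr4:20330148-20330397, minus strand) and Cacnb3 (chr7:131666301-131666550, plus strand) have every CpG in capitals. In Cacna2d3 (chr16:4918900-4919149, minus strand) the capitals mark only the 6 CpGs matched by spacing to measured sites near this start. A site counted as matched on either the C or the G of a CpG, and the last of the 6 matched on the G.
Cacna2d1: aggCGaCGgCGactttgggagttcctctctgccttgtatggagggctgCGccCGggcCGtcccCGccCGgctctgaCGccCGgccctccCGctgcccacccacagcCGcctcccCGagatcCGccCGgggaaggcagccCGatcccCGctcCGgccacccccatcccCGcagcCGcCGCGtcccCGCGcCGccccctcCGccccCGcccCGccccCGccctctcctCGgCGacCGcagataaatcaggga
Cacna2d3: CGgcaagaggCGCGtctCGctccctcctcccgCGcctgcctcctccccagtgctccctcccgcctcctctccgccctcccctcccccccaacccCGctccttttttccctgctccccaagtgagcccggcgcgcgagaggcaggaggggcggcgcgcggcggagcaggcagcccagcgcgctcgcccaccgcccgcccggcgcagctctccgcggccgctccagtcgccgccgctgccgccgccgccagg
Cacnb3: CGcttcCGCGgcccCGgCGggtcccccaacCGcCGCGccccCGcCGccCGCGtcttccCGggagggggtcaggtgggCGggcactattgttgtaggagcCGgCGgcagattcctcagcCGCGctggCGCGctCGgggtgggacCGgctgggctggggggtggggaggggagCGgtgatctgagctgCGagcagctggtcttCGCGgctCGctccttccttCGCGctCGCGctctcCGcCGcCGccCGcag
The Cacna2d3 match was found after the values were seen, by sliding the measured positions along the windows of 2 genes. Among 448 alignments it was the single one in which every site inside a window fell on a CpG, 6 of 6 sites. Another alignment in the same window put 6 of 7 sites on CpGs, so the match does not by itself identify these CpGs. The 3 stretches hold 32, 34 and 35 CpGs in the order printed. CpG counts in the 8 windows ran from 3 to 37, and 7 of the 8 had 30 or more, against 5.3% of all 33469 windows, whose median was 5. The Cacna2d1 windows before starts 20329862 and 20329874 overlap, so the 8 are not all separate sequences. The motif CCGG, searched as written, which reads the same on both strands, occurred in all 8 windows and in 46.2% of all windows.

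The annotated sites were spread unevenly over the family. Cacna2d3 had 11, Cacnb3 had 9, Cacna2d1 had 8, Cacnb1 had 2, and Cacna2d2 and Cacnb4 had 1 each, while Cacnb2, which encodes a beta subunit prominent in heart, had none and is described no further. A gene name here means the nearest annotated transcript start, which can lie far away. Of the 32 sites, 9 were flagged as intronic, 3 as CpG island shore, and 5 as both promoter and CpG island, all 5 at Cacnb3. None was flagged as exonic, and 15 carried no flag.

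Methylation was lower after SNL at 22 of the 32 annotated sites, with a median difference of −0.55 percentage points, SNL minus Sham. Over all 32674 annotated sites 61.3% were lower and the median difference was also −0.55 points. The 3 SNL values lay wholly below the 3 Sham values at 5 family sites, against 13.2% of all annotated sites in that direction, and wholly above them at 1, a total of 6 family sites against 17.8% of all annotated sites in either direction. Those shares are near the background. Each site was tested with a logistic model of methylated and unmethylated reads whose spread was moderated over all sites, and a site was called where the Benjamini-Hochberg adjusted p over all 32674 sites was under 0.05. 1 of the 32 family sites was called, and it was lower, where 1.27% of all annotated sites were called in either direction and 1.12% were called lower.

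**Figure D1:**
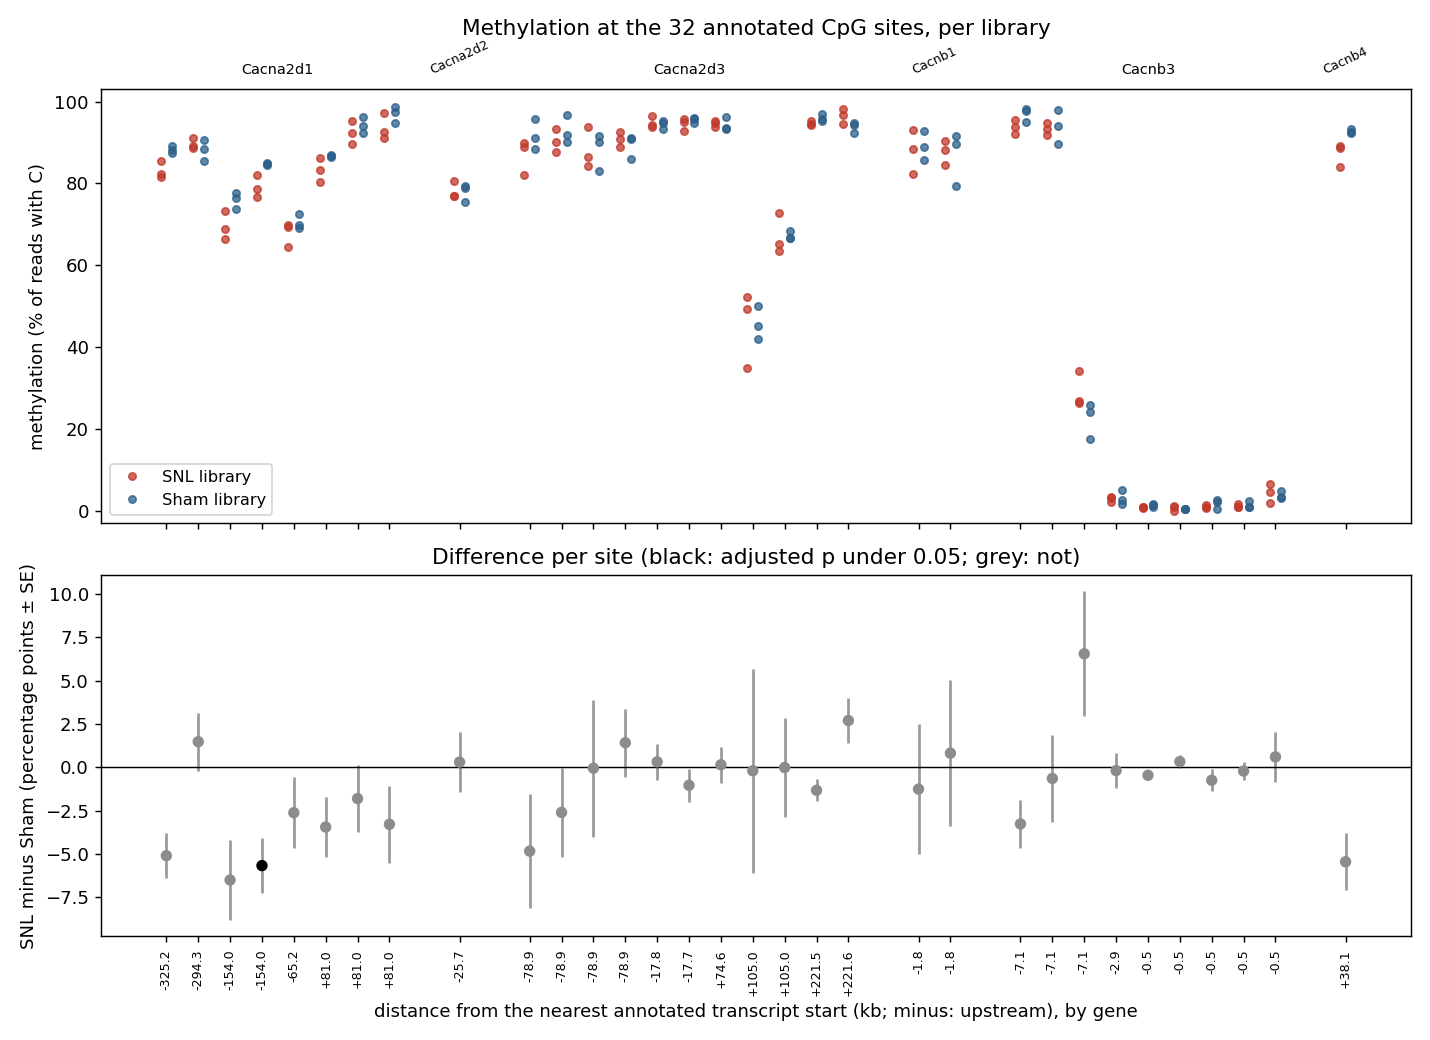
The upper panel plots percent methylation of each SNL library (red, left) and Sham library (blue, right) at the 32 annotated sites, by gene and by distance in kb from the named start, and the lower panel plots the difference of group means with its SE. The single site past the threshold (black) lies 154.0 kb upstream of Cacna2d1, and the promoter sites of Cacnb3 have group means between 0.38 and 4.27%.

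The called site belongs to Cacna2d1, at chr4:15720712 (rn4), 153980 bp upstream of the start, with no promoter, gene body or island flag. Its methylation was 82.0, 76.6 and 78.5% in SNL libraries 1 to 3, against 85.1, 84.5 and 84.6% in Sham libraries 1 to 3, at 708 to 988 reads per library. Every SNL value lay below every Sham value, the Sham values lay close together, and SNL 1 was nearest to them. The means were 79.1 ± 2.7% in SNL and 84.7 ± 0.3% in Sham (SD, n = 3 each), a difference of −5.67 ± 1.59 points (SE) with an adjusted p of 0.0495 in the moderated quasi-binomial F test. The authors' deposited table gave this site a q-value of 0.00811.

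The call stood close to the threshold and was lost, at adjusted p of 0.125 to 0.223, when SNL 2, SNL 3, Sham 1, Sham 2 or Sham 3 was left out, and without SNL 1 3 family sites were called in place of 1. It was also lost with the numbers as a block (adjusted p = 0.0659), with library offsets that remove each library's common shift (0.0854, difference −4.46 points), with a coverage minimum of 200 (0.0625), with limma on logit values (0.427) and without moderation (0.805).

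The neighbouring CpG 11 bp away, at chr4:15720723, also had SNL 1 highest and SNL 2 lowest among the SNL libraries. It had 73.2, 66.3 and 68.9% methylation in SNL libraries 1 to 3, against 77.7, 76.4 and 73.8% in Sham libraries 1 to 3. The groups did not overlap, the difference was −6.50 ± 2.30 points (SE) and the adjusted p was 0.0726. The 2 positions lie within a read length and share reads, so they are not independent measurements.

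A second distal stretch lay 325235 bp upstream, at chr4:15891967. It had 85.5, 82.4 and 81.6% methylation in SNL libraries 1 to 3, against 88.2, 87.3 and 89.2% in Sham libraries 1 to 3. Here too the groups did not overlap, with a difference of −5.09 ± 1.29 points (SE) at 553 to 726 reads, but the adjusted p was 0.0762. In the authors' deposited table the q-value was 0.00288 at this site and 0.0582 at chr4:15720723.

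The other 5 Cacna2d1 sites did not pass the test. The intronic site chr4:15485503 had 83.3, 86.1 and 80.3% in SNL libraries, against 87.0, 86.3 and 86.7% in Sham libraries, a difference of −3.44 points without overlap (adjusted p = 0.636). Its neighbours chr4:15485475 and chr4:15485498 had differences of −3.29 and −1.80 points, chr4:15631972 had −2.61 points, and chr4:15861004 had 1.48 points, all with overlapping groups. SNL was thus lower at 7 of 8 sites, against 61.3% of all annotated sites. Those of the 8 that lie within a read length of each other are not independent.

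**Figure D2:**
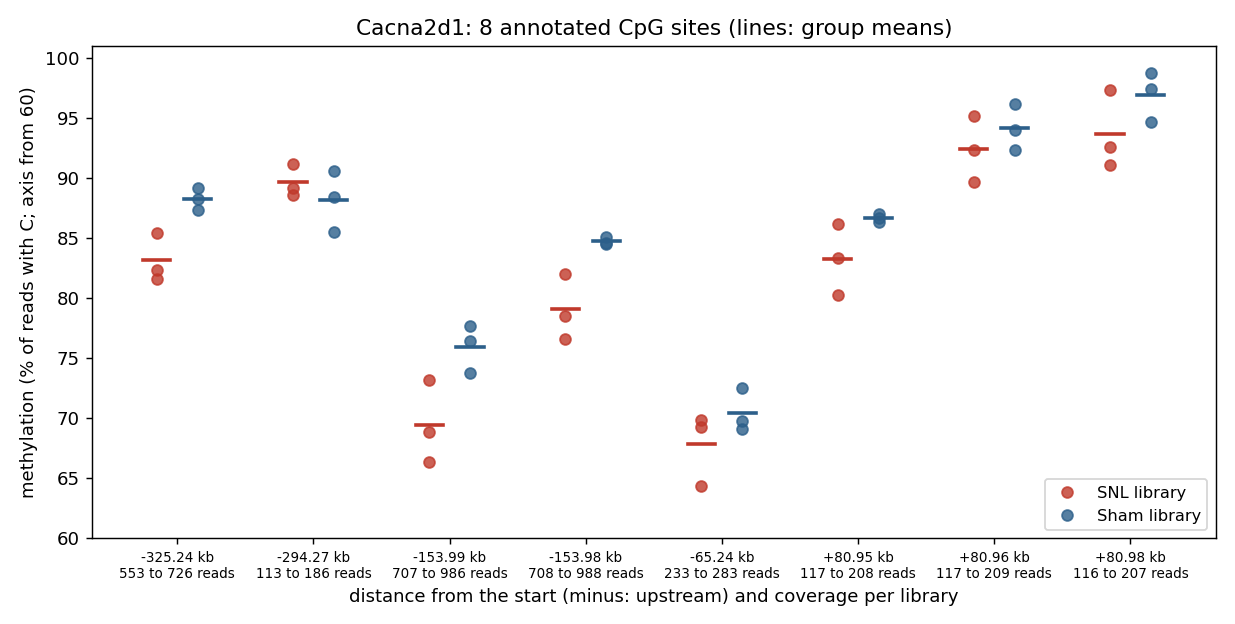
Percent methylation of SNL libraries (red, left) and Sham libraries (blue, right) at the 8 annotated Cacna2d1 sites, ordered by distance from the named start, with lines at group means and the y axis starting at 60%. At −325.24, −153.99, −153.98 and +80.95 kb every SNL value lies below every Sham value, and at the other 4 sites the groups overlap. Over all annotated sites 13.2% have every SNL value below every Sham value.

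Summed over its 8 sites, Cacna2d1 had 81.3, 77.0 and 77.7% methylation in SNL libraries 1 to 3, against 84.2, 82.6 and 83.4% in Sham libraries 1 to 3. The groups did not overlap. The difference was −4.73 ± 1.43 points (SE, n = 3 each) and the adjusted p over 8016 genes was 0.136, which ranked the gene 154 by p. The upstream pair supplied 52.0% of the summed coverage, in which a read over both sites counts at each. Without the pair the means were 83.5 ± 1.5% in SNL and 86.6 ± 1.2% in Sham, a difference of −3.10 points. With the sites within 100 kb of a start alone, the difference was −2.23 points (adjusted p = 0.551). Leaving out SNL 1 brought the gene past the threshold (−6.06 points, adjusted p = 0.0264).

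In 1000-bp windows with 3 or more sites at 10 reads, 10 windows held a family site and 1 was called, where 0.483% of all 64004 windows were called. It was the window chr4:15720001-15721000, which holds the Cacna2d1 pair and 1 further CpG. The window had 76.3, 70.9 and 73.1% in SNL libraries 1 to 3, against 81.0, 79.8 and 78.5% in Sham libraries 1 to 3, a difference of −6.33 ± 1.72 points (SE) with an adjusted p of 0.0234. The groups did not overlap, and the call rests largely on the reads of the pair already described. It was lost when SNL 2, SNL 3, Sham 1, Sham 2 or Sham 3 was left out (adjusted p 0.0771 to 0.166), with the block (0.0796), with limma (0.677) and without moderation (0.954).

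The other alpha-2-delta members had no called site. Cacna2d2, whose loss causes ataxia and seizures in mice and whose protein also binds gabapentin, had 1 annotated site in an island shore 25707 bp upstream, at chr8:112617702. It had 76.8, 80.6 and 76.9% in SNL libraries 1 to 3, against 79.2, 78.8 and 75.4% in Sham libraries 1 to 3. The groups overlapped at 1028 to 1368 reads per library, the difference was 0.31 ± 1.75 points (SE), and the adjusted p was 0.965.

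Cacna2d3, which acts in heat pain sensation in flies and mice, had group means between 45.5 and 96.4% in SNL and between 45.7 and 95.9% in Sham at its 11 sites. The groups overlapped at all 11 sites, 7 were lower after SNL, and the lowest adjusted p was 0.409, at chr16:5138520, where SNL had 89.8, 82.0 and 89.0% and Sham had 95.8, 88.4 and 91.1%. The least methylated site was the intronic chr16:4954593, with 52.3, 49.3 and 34.8% in SNL libraries and 41.9, 50.0 and 45.1% in Sham libraries. Its SNL libraries had the widest spread of any annotated family site (SD 9.34 points), and the difference was −0.19 points. The other 9 sites had differences between −2.60 and 2.71 points.

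Cacna2d3 had the most sites of any member, and its per-library level over them was set against that of 2305 genes with 5 or more annotated sites. The closest over the 6 libraries were Atp13a5 (Pearson r = 0.989), Mfge8 (r = 0.981) and Smlr1 (r = 0.973). This describes 6 points that share library and depth, selected as the highest of many, and carries no test. Cacna2d3 itself had 87.2, 84.9 and 81.7% in SNL libraries 1 to 3, against 85.3, 85.6 and 85.0% in Sham libraries 1 to 3.

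Among the beta subunit genes, Cacnb1, best known from skeletal muscle, had 2 island shore sites, 1780 and 1798 bp upstream. The nearer had 90.4, 88.2 and 84.4% in SNL libraries and 79.3, 89.5 and 91.7% in Sham libraries. The farther had 88.4, 82.2 and 93.0% in SNL libraries and 85.6, 92.8 and 89.0% in Sham libraries. The groups overlapped at both, and the differences were 0.82 and −1.25 points, each smaller than its SE.

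Cacnb3, which encodes a beta subunit found with N-type channels in neurons, held the family's only annotated promoter sites. Its 5 island sites, 475 to 503 bp upstream of the start at chr7:137384249-137384277, had group means between 0.71 and 4.27% in SNL and between 0.38 and 3.66% in Sham at 211 to 398 reads. A sixth site 2878 bp upstream had 2.90% in SNL and 3.08% in Sham. All 6 overlapped between the groups, with differences between −0.74 and 0.61 points.

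About 7 kb upstream of Cacnb3, methylation differed sharply over 49 bp. The sites chr7:137377630 and chr7:137377644 had means of 93.7 and 93.2% in SNL and of 97.0 and 93.9% in Sham. Only 35 bp farther on, chr7:137377679 had 34.0, 26.7 and 26.3% in SNL libraries 1 to 3, against 25.9, 24.1 and 17.4% in Sham libraries 1 to 3. This was the family's single annotated site at which every SNL value lay above every Sham value. Its difference of 6.56 ± 3.60 points (SE) did not pass the test (adjusted p = 0.5). The next covered CpG, 19 bp on and at 16 reads or more, had 28.5% in SNL and 23.7% in Sham. The covered CpGs 111 to 459 bp on had 11 to 55 reads and differed in direction. CpGs 111 and 130 bp on had 26.1 and 22.7% in SNL, against 43.6 and 38.8% in Sham, with overlapping groups. CpGs 329, 330 and 459 bp on were higher in SNL by 5.13, 1.70 and 2.28 points, also with overlapping groups. A CpG 376 bp on had 77.9% in SNL and 65.2% in Sham, without overlap. The moderated F test gave an adjusted p of 0.919 at 111, 130 and 376 bp, in a fit that made no call anywhere. The window chr7:137377001-137378000, with 11 sites, was lower in SNL without overlap (−3.21 points, adjusted p = 0.611).

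**Figure D3:**
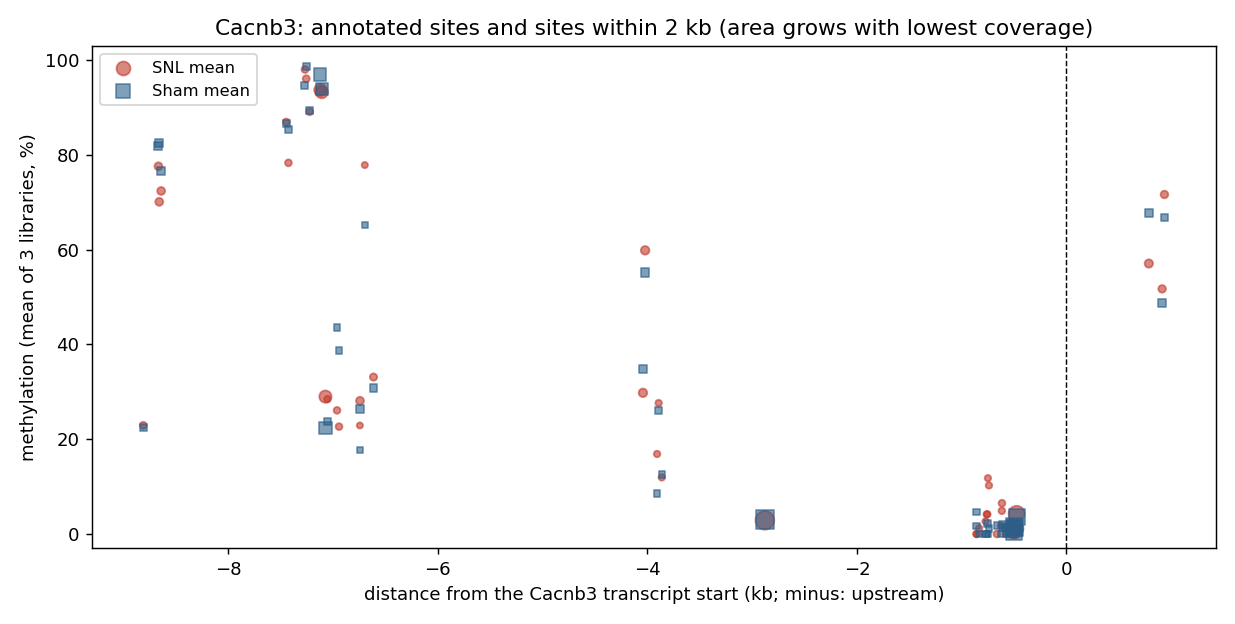
Mean methylation of the 3 SNL libraries (red circles) and the 3 Sham libraries (blue squares) at covered CpGs around Cacnb3, by distance in kb from the start, with marker area growing with the lowest coverage. Sites between −0.9 and −0.4 kb lie under 12% in both groups, and sites near −7.1 kb range from 22.4 to 97.0%.

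Cacnb4, whose mutation causes ataxia and seizures in mice, had 1 annotated site, intronic and 38137 bp from the start, at chr3:34033934. It had 88.6, 89.1 and 84.0% in SNL libraries 1 to 3, against 93.2, 92.5 and 92.4% in Sham libraries 1 to 3. The groups did not overlap and the difference was −5.45 ± 1.64 points (SE), with an adjusted p of 0.19, while the authors' deposited table gave a q-value of 0.0236. The 1 other covered CpG within 2000 bp had 85.7, 88.2 and 100% in SNL libraries 1 to 3, against 88.2, 58.8 and 91.7% in Sham libraries 1 to 3, at 12 to 17 reads (adjusted p = 0.919). The groups overlapped, and the difference of 11.7 points rested on Sham 2, being 1.37 points without it.

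By gene, 0 of the 6 members with sites were called, against 0.536% of 8016 genes, while 2 had an unadjusted p under 0.05, against 13.7% of all genes. These were Cacna2d1 and Cacnb4, which were also the 2 genes with every SNL value below every Sham value, against 15.8% of all genes. In Sham the levels ran from Cacnb4 (92.7 ± 0.4%) through Cacnb1 (88.0 ± 4.8%), Cacna2d3 (85.3 ± 0.3%), Cacna2d1 (83.4 ± 0.8%) and Cacna2d2 (77.8 ± 2.1%) to Cacnb3 (14.6 ± 1.1%). In SNL the levels were 87.2 ± 2.8% for Cacnb4, 87.8 ± 2.2% for Cacnb1, 84.6 ± 2.8% for Cacna2d3, 78.7 ± 2.3% for Cacna2d1, 78.1 ± 2.2% for Cacna2d2 and 14.0 ± 0.8% for Cacnb3. Cacnb4 and Cacnb1 overlapped in SNL libraries and not in Sham libraries, Cacnb1 and Cacna2d3 overlapped in both groups, Cacna2d3 and Cacna2d1 in neither, Cacna2d1 and Cacna2d2 overlapped in SNL libraries and not in Sham libraries, and Cacnb3 stood apart from the rest. The genes differ in which sites were captured, and Cacnb3 was the only one with annotated promoter sites.

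**Figure D4:**
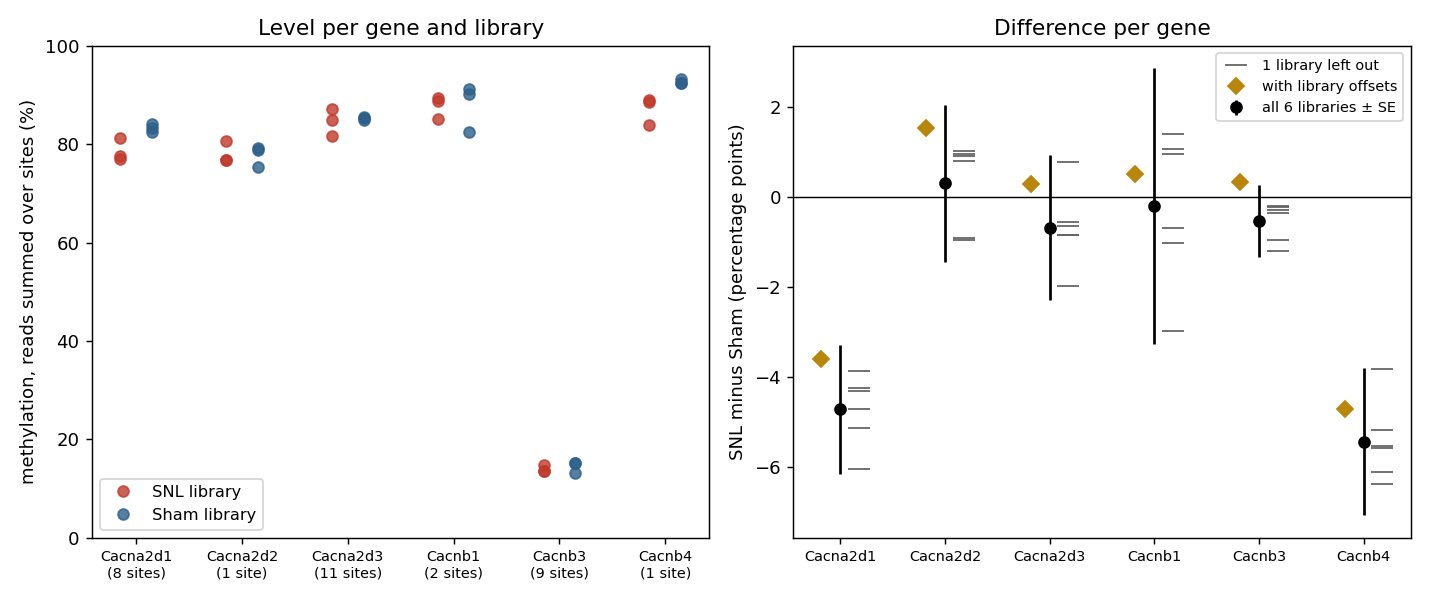
The left panel plots methylation summed over each gene's sites for SNL libraries (red, left) and Sham libraries (blue, right), and the right panel plots SNL minus Sham with all 6 libraries (black, SE), with library offsets (diamonds) and with each library left out (dashes). Cacna2d1 and Cacnb4 stay below 0 in every version drawn, and the other 4 genes have versions on both sides of 0 or close to it.

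The moderated F test could not single out sites in the wider set at 10 reads or more. It called 0% of all 424646 sites, so that 0 of the 131 family sites were called says nothing about whether they differed, and 12464 sites of the whole table and 4 of the family had an unadjusted p under 0.05. When sites with reads of 1 kind only were kept out of the estimate of the spread, a choice made after the counts were seen, 1693 sites were called, 3 of them in the family, all annotated Cacna2d1 sites (chr4:15720712, chr4:15720723 and chr4:15891967). None of the 99 other sites was called in that version either. Among those 99 the groups did not overlap at 9, against 10.2% of all sites, with SNL below Sham at 5 and above it at 4. Near Cacna2d1, SNL lay wholly below Sham at 3 of 12 such sites and wholly above it at 2. Of the 99, 54 were lower after SNL, against 53.7% of all sites. The lowest p among them was at chr4:15861658 near Cacna2d1, with 73.7 ± 4.5% in SNL and 86.3 ± 4.7% in Sham at 40 to 47 reads (adjusted p = 0.919).

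Most covered sites near the starts had low methylation in both groups. Within 1000 bp of the listed starts, a distance chosen after the values were seen, 65 sites at 10 reads or more were found for 5 genes and none for Cacnb4. Those of Cacna2d1, Cacna2d2 and Cacna2d3 and some of Cacnb1 lie more than 2000 bp from any annotated family site. They are therefore not among the 131 family sites. The median level of the 65 sites was 2.47% in SNL and 1.59% in Sham, and both group means were under 12% at 61 of them. The other 4 were 3 downstream of the Cacnb3 start, with 51.7 to 71.7% in SNL and 48.7 to 67.7% in Sham, and 1 upstream of Cacna2d2. The Cacna2d2 site, at chr8:112642478, had 10.7, 25 and 13.6% in SNL libraries 1 to 3, against 26.3, 33.3 and 40% in Sham libraries 1 to 3, at 15 reads or more, with no overlap and an adjusted p of 0.919. At 1 site the SNL values lay above the Sham values without overlap, chr16:5060041 near Cacna2d3, with 14.6, 12 and 9.30% in SNL libraries, against 3.70, 0 and 0% in Sham libraries (adjusted p = 0.919). These sites without overlap, 1 lower and 1 higher among 65, stand beside 10.2% of all sites at 10 reads or more. Groups that each hold a library at 0% always count as overlapping, which is frequent at sites this low. The comparison with sites of all levels is therefore not like for like. No site was called in this fit, which made no call anywhere, and 2 had an unadjusted p under 0.05. They were chr16:5060041 and chr8:112643828 near Cacna2d2, and chr8:112642478 was not among them. The site chr8:112643828 had 0, 15 and 14.3% in SNL libraries 1 to 3, against 0% in each Sham library. By gene the SNL medians were 5.93% for Cacna2d1 (7 sites), 2.78% for Cacna2d2 (9 sites), 2.04% for Cacna2d3 (18 sites), 0% for Cacnb1 (9 sites) and 2.21% for Cacnb3 (22 sites). The Sham medians were 5.88% for Cacna2d1, 1.52% for Cacna2d2, 1.59% for Cacna2d3, 0% for Cacnb1 and 1.36% for Cacnb3. The 6 measured sites matched by spacing to the Cacna2d3 CpGs in capitals above are among these low sites. The lowest coverage here was 10 reads, and a difference at a single one of these sites was not detectable with this fit.

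Genes of the channel's other parts were read too. Of 10 pore subunit genes 5 had annotated sites, and 0 genes and 0 of 32 sites were called. Over the whole series 0.536% of genes and 1.27% of annotated sites were called. No gene of the 5 had an unadjusted p under 0.05. The lowest p was that of Cacna1b, the pore of N-type channels, with 91.4 ± 0.5% in SNL and 90.8 ± 0.4% in Sham. The median site difference was 0.70 points over 32 sites, against −0.55 points over all sites.

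Of 13 other auxiliary subunit genes 6 had sites. Where 1.27% of all annotated sites were called in either direction, 1 of their 43 sites was called, and it was higher. It lies in an intron of Cachd1, which encodes an alpha-2-delta-like protein, at chr5:121448044, with 56.5 ± 0.6% in SNL and 50.2 ± 2.4% in Sham (adjusted p = 0.0358). The lowest gene p values were those of Cacng3 (85.3% in SNL, 83.1% in Sham, adjusted p = 0.262) and Cacng6 (41.2% in SNL, 44.3% in Sham, adjusted p = 0.618), both calcium channel gamma subunit family genes.

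Of 19 known partners of the subunits 9 had sites, and SNL was lower for all 9 genes, with a median of −2.36 points, against 66.9% lower and −0.79 points over all genes. Rims2, which encodes a presynaptic scaffold protein, had 83.5 ± 1.1% in SNL and 88.1 ± 1.4% in Sham (adjusted p = 0.179).

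Sites whose named start belongs to a cell type marker gene were read in the same way, as methylation and not as expression. Mean levels per library were 76.4 to 77.8% in SNL and 76.9 to 78.1% in Sham for 10 of 14 sensory neuron markers, and 61.1 to 63.0% in SNL and 62.3 to 63.3% in Sham for 6 of 11 glial markers. They were 84.1 to 85.5% in SNL and 84.6 to 85.5% in Sham for 5 of 9 immune markers, and 61.1 to 62.5% in SNL and 61.1 to 62.5% in Sham for 7 of 9 fibroblast and vessel markers. 2 of the 158 sites in these lists were called (1.27%, the same share as over all annotated sites), both lower. The 1 named for the neurofilament gene Nefl lies 40760 bp upstream of its start (72.9 ± 0.9% in SNL, 79.8 ± 2.7% in Sham). The 1 named for the Schwann cell factor Egr2 lies 46486 bp upstream (35.9 ± 2.9% in SNL, 48.7 ± 1.9% in Sham). Their part in the family's values was not tested.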

How the data were processed

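Per the submitters' processing notes, the tools were Bismark 0.18.1, Bowtie2 and methylKit 1.3.3. Those notes name rn4 as the genome, while the labels' protocol names a human assembly; coordinates are printed as deposited, as rn4. Per the file headers, the per-library files give a coverage count and the percent of C and T reads per CpG, and the deposited series table gives percent methylation, p-value, q-value, difference, flags and distance. How the authors' test was set is not stated in those sources. Methylated counts were recovered from the deposited percent and coverage, and 99.93% of them fell within 0.05 of a whole number. PCR copies are not told apart. Of 8123 transcripts, 7627 matched a symbol in a RefSeq table of GRCr8, used for names only. Promoter sequences are RefSeq's, GRCr8.

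Counts were tested per annotated site, per site at 10 reads or more, per gene and per 1000-bp window, over all 6 libraries, with a logistic regression on group. Overdispersion (4 residual degrees of freedom) was moderated with limma squeezeVar over all features and kept at 1 or above, followed by a two-sided F test with Benjamini-Hochberg adjustment at 0.05. Leaving features with reads of 1 kind only out of the prior is an alternative chosen after the counts of calls under 5 ways of handling them were seen. It raised called annotated sites to 464, against 415, and called sites at 10 reads to 1693, against 0. Other alternatives left out each library or changed the block, moderation, test (limma with a pseudocount of 1), scaling, strand merging, coverage or distance. The test was tested on simulated data, where the fit at 10 reads or more recovered no changed site, and its calls are read accordingly.

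The members and gene lists were chosen with earlier results of these data known. Sites named are, per gene, every called site, the lowest p, the highest and lowest Sham mean, the site nearest the start and up to 4 promoter, exon or island sites. Other sites without overlap between the groups, the remaining sites of each gene and the sites near starts were named after their values were seen. Of each other list, the 2 genes with the lowest p and every called site were eligible. Values and calls of 1 single gene are not reported here, while the counts and medians of its list include it. The fits were run in R 4.3.3 with limma 3.58.1 and the data.table package (1.17.8), and the loading, promoter and drawing steps in Python 3.11.15 (numpy 2.4.6, pandas 2.3.3, matplotlib 3.10.9).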

Additional observations from a re-analysis of the deposited data

How the results depend on the processing

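Of the annotated family sites, 0 were called without SNL 2, SNL 3, Sham 1, Sham 2 or Sham 3 and 3 without SNL 1 (range 0 to 3). Called family sites were also 0 with the block, without moderation, with limma, with library offsets and with a coverage minimum of 200. Merging neighbouring positions and leaving features with reads of 1 kind out of the prior kept 1. The site chr4:15720712 lay between −7.15 and −4.45 points in every alternative. Family windows went from 1 call to 0 with the block, without moderation and with limma, and to 0 or 1 with a library left out. Calls of family sites at 10 reads or more became 3 with the added prior and were 0 in the other alternatives. Calls of family genes ranged from 0 to 1 with a library left out, Cacna2d1 lying between −6.06 and −3.88 points. The numbers were not taken to pair the libraries, since same-numbered ones correlated at −0.055, 0.256 and −0.135 over annotated sites. The highest of the 9 correlations was 0.341, between SNL 3 and Sham 1, so pairing under other numbers cannot be judged. The replicate block moved called annotated family sites to 0 (chr4:15720712, −5.67 points, adjusted p = 0.0659), and called family windows to 0. Fewer libraries are tested when 1 is left out, and the cause of the other changes was not tested.

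Small differences changed sign. With library offsets the gene differences were 0.28 points for Cacna2d3, 0.51 for Cacnb1 and 0.33 for Cacnb3, and the site differences were 1.67 at chr16:4954593, 1.77 at chr16:4954548, 0.99 at chr16:5138490 and 0.031 at chr7:137381874. With an unweighted mean of sites Cacnb3 had 0.22. With a library left out, the Cacna2d2 gene difference ranged from −0.95 to 1.01 points, Cacna2d3 from −1.98 to 0.78, and Cacnb1 from −2.98 to 1.39, as reversals at −0.90, 1.07 and 0.96 show. Of the 32 annotated sites, those that reversed when a library was left out were chr10:86786570 (range −2.95 to 3.24, with −0.56 without SNL 1), chr10:86786588 (−3.83 to 1.56, with 0.59 without Sham 2), chr16:4954593 (−3.60 to 5.13, with 1.97 without Sham 2), chr7:137384277 (−0.51 to 1.79), chr7:137384266 (−0.48 to 0.25), chr8:112617702 (−0.95 to 1.01), chr16:4954548 (−2.78 to 1.81), chr16:4984982 (−0.37 to 1.08), chr16:5077338 (−0.53 to 0.84), chr16:5138485 (−0.25 to 2.33), chr16:5138490 (−2.91 to 1.92), chr7:137377644 (−2.75 to 1.38) and chr7:137381874 (−0.89 to 0.73). Windows reversed at Cacna2d2 (−0.71 to 1.61, with −0.67 without SNL 2) and at Cacnb1 (−2.73 to 0.062). The fit of sites at 10 reads or more called nothing in the whole table, so its 0 calls carry no information, and 3 libraries per group limit every test.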
